A study of Homo sapiens with 16 samples.

Results

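The baseline expression profile of A375 control cells was read from the 8 control arrays of the series, out of 16 arrays in all. A375 is a human amelanotic melanoma cell line, and the study overexpressed catalase in it. The control arrays were those of 4 samples of PCDNA3 cells and 4 samples of A375 cells. PCDNA3 cells are A375 cells stably transfected with the empty vector pcDNA3 by lipofection, selected with geneticin and grown in its presence, and A375 cells are the nontransfected parental cells, grown without geneticin. Both were cultured in DMEM/F-12 medium with fetal bovine serum until subconfluence, and neither carried the catalase cDNA. Whether PCDNA3 cells are 1 clone or a pool is not given in the sources used here. The 4 samples of each line are described as biological replicates. The arrays were chosen by their titles and no expression value was used for the choice.

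Melanoma arises from melanocytes, the pigment cells that descend from the neural crest. The transcription factor MITF drives the genes of melanosomes and of melanin synthesis, and SOX10 and PAX3 act upstream of it. Amelanotic melanomas make little or no pigment. In most melanomas the MAPK pathway is active, and melanoma cells can shift between a pigmented state and a state with low pigment genes and high genes of matrix and invasion. Olfactory receptors are odorant receptors of the nose and served here as a yardstick for genes that a melanoma line does not use.

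The RNA was read on Human Gene 1.0 ST arrays of Affymetrix. The files hold log2 intensities for 33297 transcript clusters, the units by which the array reads a gene. Medians of the 8 arrays were between 5.89 and 5.97. Pearson's r between arrays, over all clusters, was 0.99 to 0.993 within a line and 0.988 to 0.992 between the lines, as a description across clusters that share their probes. PCDNA3 replicate 3 stood apart. On that array 48 of 18394 genes (0.261%) were at least 1 log2 unit above the median of the other 3 PCDNA3 arrays, whereas the other 7 arrays had 2 to 16 such genes. Results that rest on it are given with and without it.

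Of 361 olfactory receptor genes, read by 381 clusters, the median level over the 8 arrays was 3.51, and 95% of the clusters were below 5.19. This 95th percentile is called the olfactory receptor level. Above it were 13255 of 18394 genes (72.1%), and 12317 genes (67.0%) were above the level of each of the 8 arrays on that array. By array, 12814 to 13312 genes were above that array's own level. The yardstick was a low one beside a second level. In 6 other families that are restricted to few tissues (bitter taste receptors, vomeronasal receptors, beta-defensins, type I interferons, keratin-associated and late cornified envelope proteins) the 95th percentile was at 7.26, and 7771 genes (42.2%) were above that. Only keratin-associated (6 genes) and late cornified envelope (2 genes) members of these families were above 7.26. The highest means were 4.88 for bitter taste receptors, 3.835 for vomeronasal receptors, 5.98 for beta-defensins and 4.32 for type I interferons. Both counts are therefore given for most lists, to be read beside the 72.1% and 42.2% of all genes. An intensity also depends on the probes of a cluster, so ranks order intensities and not amounts of RNA, and fewer cells that express a gene and less RNA per cell cannot be told apart.

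The levels of genes were spread widely. Of the genes, 13.8% had a mean under 4, 26.1% were between 4 and 6, 28.7% between 6 and 8, 23.5% between 8 and 10, and 7.13% between 10 and 12. Only 123 genes (0.669%) were at 12 or higher. The median over all genes was 6.73.

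**Figure D1:**
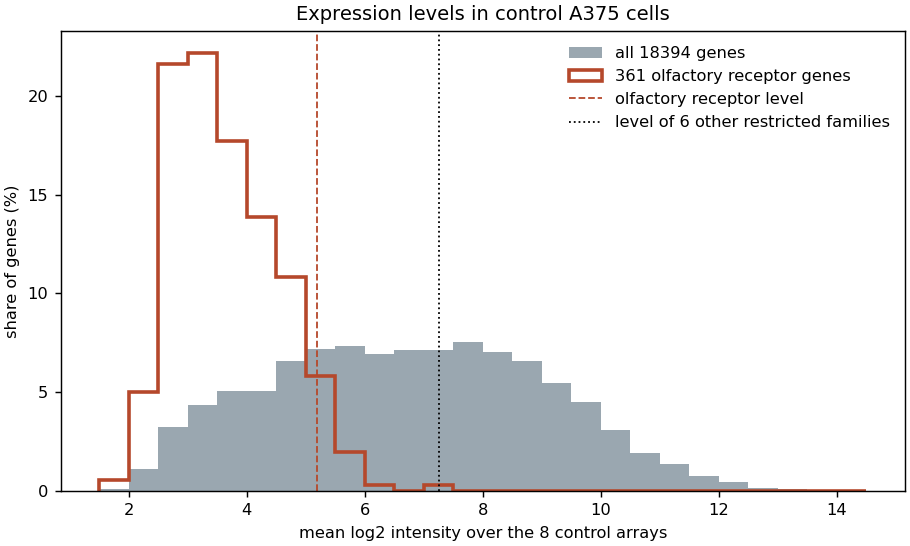
Share of genes (y axis, %) by mean log2 intensity over the 8 control arrays (x axis, in bins of 0.5), for all 18394 genes (grey) and the 361 olfactory receptor genes (red outline). The dashed line is the olfactory receptor level of 5.19 and the dotted line the level of the 6 other restricted families, 7.26, and most of the grey area is right of the dashed line.

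The 3 genes just above the olfactory receptor level were OR3A3, DNALI1 and PROM2, and the 3 just below it were OR52K3P, FHIP1A and ITGB2. All 6 were at 5.18 or 5.19, and their SDs within a line, from 0.075 to 0.296, were larger than the distances between them.

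The brightest gene was GAPDH, a glycolytic enzyme that the study used to scale its qPCR. GAPDH was at 13.82, 13.95, 13.85 and 13.91 in PCDNA3 cells and at 13.94, 13.96, 13.83 and 13.92 in A375 cells. It had rank 1 on all 8 arrays, with an SD within lines of 0.058. The dimmest olfactory receptor, OR5T1, was at 1.94, 1.80, 2.19 and 1.96 in PCDNA3 cells and at 2.18, 1.83, 1.83 and 1.97 in A375 cells. The 250 bases before the RefSeq start of both genes, on build GRCh38.p14, are shown because the number of CG dinucleotides before the start changed with the level. Capitals mark CG. The GAPDH stretch, at chr12:6535014-6535263 on the plus strand, holds 22, and that of OR5T1, at chr11:56273904-56274153 on the plus strand, holds 0.
GAPDH: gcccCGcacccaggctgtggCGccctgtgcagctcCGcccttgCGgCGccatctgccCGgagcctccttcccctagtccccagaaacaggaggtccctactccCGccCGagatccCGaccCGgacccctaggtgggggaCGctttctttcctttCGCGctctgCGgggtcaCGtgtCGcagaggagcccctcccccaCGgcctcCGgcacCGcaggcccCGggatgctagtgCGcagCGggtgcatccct
OR5T1: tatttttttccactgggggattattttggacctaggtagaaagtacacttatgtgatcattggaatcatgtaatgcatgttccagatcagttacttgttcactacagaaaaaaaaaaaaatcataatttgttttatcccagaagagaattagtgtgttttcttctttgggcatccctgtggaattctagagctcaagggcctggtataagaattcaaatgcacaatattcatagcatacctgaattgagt

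The 25 brightest genes were housekeeping genes for the most part. ENO1, a glycolytic enzyme, followed GAPDH at 13.60, and LDHA, which makes lactate, was at 12.98. EEF1A1 (13.53), EEF1G and EIF1 serve translation, and 5 genes were ribosomal (RPL4 13.28, RPS3, RPL5, RPL18 and RPS4X). HSPA8 (13.43), HSP90B1 (12.91) and PDIA6 fold proteins. ACTG1 (13.41), ACTB (13.35) and TUBB (13.29) are cytoskeletal, and the group also held NPM1, PTMA, ATP5F1B, PSMB4 and S100A10. SERPINE2 and SERPINA3, both secreted protease inhibitors, are less common in such a list. SERPINE2 averaged 13.30, and SERPINA3 was at 13.08, 12.97, 13.15 and 13.05 in PCDNA3 cells and at 13.54, 13.59, 13.37 and 13.38 in A375 cells. The ranges of SERPINA3 in the lines did not overlap, as those of 2792 of all 18394 genes (15.2%) did not, and the line with the lower values still had it above 12.9 on every array. FAF2 was at 13.44, but its other cluster averaged 10.87, so its place is uncertain. The same holds for PTMA, RPL5 and NPM1, whose dimmest clusters averaged 6.21, 7.06 and 4.74. EEF1A1, ACTG1, ACTB, TUBB, PTMA and ribosomal genes have close copies in the genome, and the probes may read those too. Of the 25 genes, 21 were among the top 25 on all 8 arrays, and the worst rank of any was 34.

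Genes of the core machinery were nearly all above both levels. All 58 cytosolic ribosomal protein genes with a value were above the olfactory receptor level, against 72.1% of all genes, with a median of 11.65. The exceptions at the low end were RPS29, which was at 5.59, 5.86, 5.65 and 5.65 in PCDNA3 cells and at 5.89, 5.82, 5.82 and 5.70 in A375 cells, and RPL32 at 6.29. Both are structural parts of the ribosome like the others, and RPS29 was low on all 8 arrays. All 24 proteasome core genes (median 11.26), 18 glycolysis genes (10.68) and 28 proliferation and replication genes (10.16) were above both levels.

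Among the proliferation genes CCNB1, the mitotic cyclin, was brightest at 12.11, followed by the spindle factor TPX2 at 10.99, RRM1, which makes deoxynucleotides, at 10.97, and PCNA, the clamp of DNA polymerase. CCNE2, a cyclin of S phase entry, was dimmest at 8.04, and CDK1 was at 8.87. Of 86 genes of the respiratory chain, listed by symbol, 80 were above the olfactory receptor level. Among the 6 exceptions, COX6B2 (3.54), COX8C (3.90), COX7B2 and COX7A1 are isoforms of testis or muscle. Of 73 mitochondrial ribosomal protein genes 71 were above, MRPL13 and MRPS18C being the others.

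The melanocyte markers, fixed as a list of 12 genes, served to check the labelled cell type. DCT was not analysed here. Of the other 11, 10 were above the olfactory receptor level, against 72.1% of all genes, and 7 were above the level of the restricted families, against 42.2%. MITF, S100B, EDNRB, ERBB3 and SOX10 were above 9 on every array, and the other markers were dimmer.

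MITF was the brightest, at 10.20, 9.88, 10.04 and 10.22 in PCDNA3 cells and at 10.60, 10.76, 10.18 and 10.40 in A375 cells. It had rank 1086 of 18417 genes, and the lines overlapped. SOX10 was at 9.49, 9.32, 9.23 and 9.25 in PCDNA3 cells and at 9.64, 9.64, 9.47 and 9.47 in A375 cells. PAX3, which activates MITF together with SOX10, was lower but steady, at 6.91 to 7.13 in PCDNA3 cells and 6.90 to 6.98 in A375 cells. S100B, a calcium-binding protein used in the diagnosis of melanoma, averaged 10.25, and EDNRB and ERBB3, receptors for endothelin and neuregulin, averaged 9.94 and 9.64.

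The genes of pigment itself varied between samples of 1 line. PMEL, the fibril protein of the melanosome, was at 9.04, 6.98, 7.44 and 9.35 in PCDNA3 cells and at 6.87, 7.71, 7.08 and 7.07 in A375 cells. Replicates 1 and 4 of PCDNA3 cells were above all other arrays, and replicate 2 was within the range of A375 cells. MLANA, a melanosome antigen, was at 9.04, 7.63, 8.28 and 9.09 in PCDNA3 cells and at 7.54, 8.49, 7.92 and 7.92 in A375 cells, and was highest on the arrays where PMEL was highest. TYR, the enzyme that starts melanin synthesis, was at 6.33, 4.36, 5.28 and 6.58 in PCDNA3 cells and at 5.23, 5.44, 4.74 and 5.17 in A375 cells, with a mean of 5.39 that was barely above the olfactory receptor level. These values are from the brighter cluster of TYR, and its other cluster averaged 5.02, under that level.

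TYRP1, a later enzyme of melanin synthesis, was at 6.96, 6.31, 5.69 and 7.05 in PCDNA3 cells and at 4.99, 5.49, 5.41 and 5.00 in A375 cells. Its ranges did not overlap, as those of 15.2% of all genes did not, and 2 of the 4 A375 values were under the olfactory receptor level. GPR143, a receptor of the melanosome membrane, was the marker below the level, with a mean of 5.05. SDs within lines were 0.866 for PMEL, 0.751 for TYR, 0.564 for MLANA and 0.484 for TYRP1, against a median of 0.136 for genes above the level. Replicate 3, which stood apart, was the lowest PCDNA3 array for TYRP1, but PMEL, MLANA and TYR were lowest on replicate 2. MITF binds E-box motifs, and the bases before the start of TYR, at chr11:89177625-89177874 on the plus strand (GRCh38.p14), are shown with CATGTG in capitals, which stands 104 and 12 bases before the start.
TYR: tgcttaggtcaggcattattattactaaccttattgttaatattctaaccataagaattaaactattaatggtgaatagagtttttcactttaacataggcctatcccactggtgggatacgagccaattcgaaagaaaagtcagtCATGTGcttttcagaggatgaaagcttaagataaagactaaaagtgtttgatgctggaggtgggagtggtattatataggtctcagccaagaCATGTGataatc

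**Figure D2:**
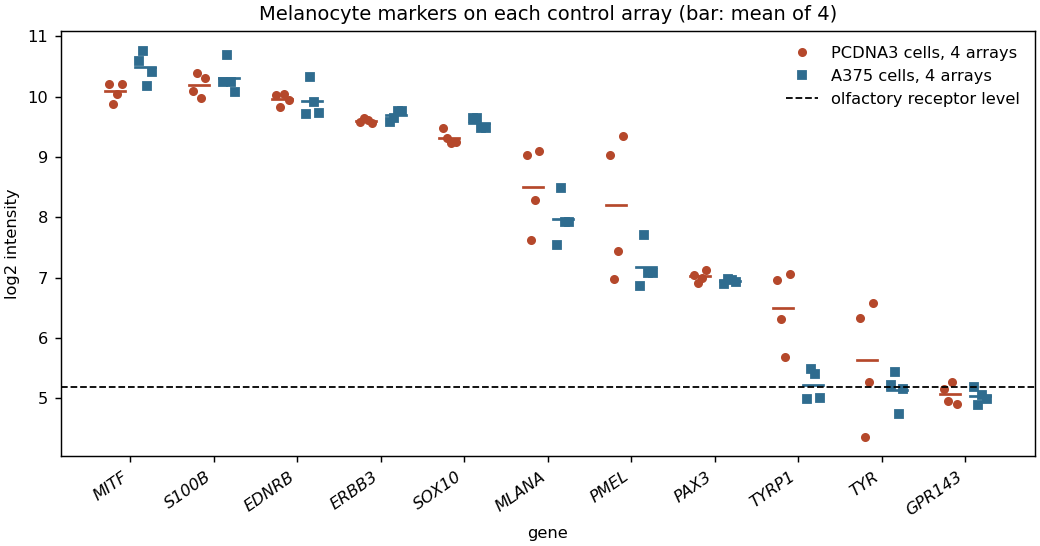
Log2 intensity (y axis) of 11 melanocyte markers (x axis) on the 4 arrays of PCDNA3 cells (circles) and the 4 arrays of A375 cells (squares), with a bar at each mean and a dashed line at the olfactory receptor level of 5.19. MITF to SOX10 are between 9.23 and 10.76 on all arrays, while PMEL spans 6.87 to 9.35 and TYR lies on both sides of the line.

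Of 21 pigment and melanosome genes 17 (81.0%) were above the olfactory receptor level and 13 (61.9%) above that of the restricted families, beside 72.1% and 42.2% of all genes. GPNMB, a melanosome glycoprotein related to PMEL, averaged 12.38, and the organelle protein CD63 averaged 11.23. RAB38 (10.26), which carries enzymes to melanosomes, and MYO5A (9.74), the motor that moves them, followed. The transporters OCA2 (5.14) and SLC45A2 (4.63) and the channel TRPM1 (4.76) were not above the level.

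Of 25 melanocyte and neural crest transcription factors 24 were above the olfactory receptor level and 15 above that of the restricted families. SNAI2, which drives migration of the neural crest, averaged 10.18, SOX5 averaged 10.00 with an SD within lines of 0.048, and ETS1 averaged 9.96. The low end held SOX2 (5.44), TFEB (5.36) and TFEC (2.68), the last being the only member below the level. TFEB and TFEC are relatives of MITF. Among 16 lineage and neural crest receptors 11 (68.8%) were above the olfactory receptor level and 6 (37.5%) above that of the restricted families. Both shares were below the 72.1% and 42.2% of all genes. TYRO3 (9.77) and MET (8.90) were bright, and KIT, the receptor on which melanoblasts depend, was at 3.57, 3.74, 3.65 and 3.28 in PCDNA3 cells and at 3.50, 3.70, 4.03 and 3.60 in A375 cells. All 8 values of KIT were under the olfactory receptor level, and EGFR (5.18), GFRA1 (4.62), GFRA2 (4.83) and NTRK2 (4.25) were below it as well.

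Genes of melanoma dedifferentiation and invasion had levels close to those of the pigment and melanosome genes. Of 38, 34 (89.5%) were above the olfactory receptor level and 24 (63.2%) above that of the restricted families. All genes had 72.1% and 42.2%, and the pigment and melanosome genes 81.0% and 61.9%. Median levels were 8.09 for these 38 genes, 7.74 for the pigment and melanosome genes and 6.73 for all genes. The matrix proteins SPARC (12.70) and FN1 (12.12) and the intermediate filament VIM (12.28) led. ITGB3, a subunit of the vitronectin receptor, was at 11.68, 11.96, 11.97 and 11.81 in PCDNA3 cells and at 12.49, 12.55, 12.24 and 12.34 in A375 cells and was in the top decile of all genes. The lines did not overlap for ITGB3, as for 15.2% of all genes, and all 8 arrays were far above the olfactory receptor level. Below the olfactory receptor level were the secreted proteins POSTN (2.87), IL6 (3.44) and DKK1 (4.12), and EGFR. WNT5A, a ligand of this state, was at 6.91, 7.88, 8.79 and 6.67 in PCDNA3 cells and at 7.79, 7.37, 7.86 and 7.78 in A375 cells. Within each line WNT5A was lowest on the arrays where PMEL was highest, replicates 4 and 1 of PCDNA3 cells and replicate 2 of A375 cells. This order was seen in 8 samples after their values were known and was not tested.

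All 22 melanoma surface and secreted antigens were above the olfactory receptor level, and 18 were above that of the restricted families. PRAME, an antigen that most melanomas carry and most normal tissues lack, was at 12.33, 12.17, 12.10 and 12.29 in PCDNA3 cells and at 11.99, 12.17, 12.05 and 12.07 in A375 cells, and the lines overlapped. LGALS1, a secreted lectin, averaged 12.15 and ANXA1, an annexin, 11.85. The dimmest were L1CAM (6.41), MELTF (6.34) and BCAM (5.42). Cancer-testis antigens were spread from 2.27 to 12.15, with a median of 5.39. PRAME is also among these 34 genes, of which 18 were above the olfactory receptor level (52.9%). Above the level of the restricted families were 11 (32.4%). All genes had 72.1% and 42.2%. MAGEA4 was at 11.74, 11.75, 11.94 and 11.87 in PCDNA3 cells and at 11.67, 11.79, 11.84 and 11.69 in A375 cells, whereas SYCP1, a protein of meiotic chromosomes, averaged 2.27. MAGEC2 (9.08) and MAGEB2 (8.71) came next to MAGEA4. Near-identical members of the MAGE family that share clusters with others were not analysed here.

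The MAPK pathway output, genes that rise with ERK activity and in part restrain it, was above the olfactory receptor level in all 21 members and above that of the restricted families in 18. PHLDA1 averaged 12.01. DUSP6, a phosphatase of ERK, was at 11.54, 11.45, 11.31 and 11.39 in PCDNA3 cells and at 11.11, 10.88, 11.05 and 11.06 in A375 cells. All PCDNA3 arrays were above all A375 arrays for DUSP6, and all 8 were bright. Ranges without overlap, in either direction, were found for 15.2% of all genes. SPRY4 (10.86) and SPRED1 (10.40), inhibitors of the pathway, were likewise in the top decile of all genes. EPHA4 (5.22) was the dimmest, and it was below the olfactory receptor level without PCDNA3 replicate 2 (5.10) or 3 (5.18). Among 18 melanoma drivers and suppressors RAC1 (12.14), IDH1 (11.96), CDK4 (11.07) and MDM2 (10.97) were the brightest. The inhibitors of CDK4, CDKN2A (6.24) and CDKN2B (5.65), and TERT (6.73), the catalytic part of telomerase, were the dimmest, all under the level of the restricted families.

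Antioxidant enzymes, the subject of the study, were high in control cells. Of 41, 36 were above the olfactory receptor level and 32 (78.0%) above that of the restricted families, and 18 were in the top decile of all genes. NQO1, a quinone reductase, was at 12.50, 12.51, 12.43 and 12.38 in PCDNA3 cells and at 12.51, 12.66, 12.42 and 12.35 in A375 cells, with overlap of the lines. The peroxiredoxins PRDX1 (12.04), PRDX6 (11.82) and PRDX3 (11.73), which reduce peroxides, followed. The exceptions below the olfactory receptor level were the glutathione peroxidases GPX2 (3.69), GPX5 (3.98), GPX6 (4.03) and GPX3 (5.13) and the epoxide hydrolase EPHX2 (4.68).

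Catalase itself, CAT, was at 8.51, 8.51, 8.53 and 8.71 in PCDNA3 cells and at 8.64, 9.03, 8.64 and 8.62 in A375 cells. Its mean of 8.65 had rank 4105 of 18417 genes. The lines overlapped, and A375 replicate 2 was the highest.

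Genes chosen for qPCR were TYRP1, CNTN1, UCHL1, MTSS1 and TIAM1, with GAPDH for scaling. Of these 6 genes, 5 were above the olfactory receptor level in these control cells. TIAM1, an activator of RAC1, averaged 7.83 and UCHL1, a ubiquitin hydrolase of neurons, averaged 7.26. MTSS1, an actin-binding protein named for its loss in metastasis, was at 7.12, 6.80, 6.86 and 7.15 in PCDNA3 cells and at 8.04, 8.45, 7.23 and 7.56 in A375 cells. Every A375 array was above every PCDNA3 array for MTSS1, and 15.2% of all genes had ranges that did not overlap, in either direction. CNTN1, a neuronal adhesion molecule, was at 3.37, 3.91, 4.24 and 3.48 in PCDNA3 cells and at 4.01, 3.93, 3.97 and 4.39 in A375 cells, below the olfactory receptor level on all arrays.

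Genes of MHC class I presentation were above the olfactory receptor level in all 11 members with a value and above that of the restricted families in 8. The chaperone CALR averaged 11.38 and the light chain B2M 10.80, and NLRC5, an activator of class I genes, was the dimmest at 5.98. Of 10 class II genes 8 (80.0%) were above the olfactory receptor level and 4 (40.0%) above that of the restricted families. All genes had 72.1% and 42.2%. HLA-DPA1 was at 10.88, 10.65, 10.72 and 10.69 in PCDNA3 cells and at 10.40, 10.64, 10.23 and 10.24 in A375 cells, and HLA-DPB1 (9.04), HLA-DMA (8.28) and HLA-DMB (8.25) were bright too. HLA-DOB (4.03) and HLA-DQB1 (3.26) were not above the level.

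Interferon-stimulated genes had the highest median SD between replicate arrays of the 59 lists. Of 32, 26 (81.2%) were above the olfactory receptor level and 12 (37.5%) above that of the restricted families. All genes had 72.1% and 42.2%. The median SD within lines of the 32 genes was 0.311, against 0.146 for all genes. An SD over 0.5 was found for 11 of the 32, against 74 of 18394 genes (0.402%). IFI16, a DNA sensor, averaged 10.66, MX2, which restrains viruses, 10.33, and IFITM3, a membrane protein that blocks virus entry, 10.30.

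The variation came with PCDNA3 replicate 3. RIGI, a sensor of viral RNA, was at 6.49, 5.81, 8.60 and 6.35 in PCDNA3 cells and at 5.52, 6.21, 6.07 and 6.21 in A375 cells. CXCL10, a chemokine that draws T cells, was at 2.80, 2.60, 7.99 and 2.52 in PCDNA3 cells and at 2.73, 2.52, 2.60 and 2.57 in A375 cells. IFIT1, which binds viral RNA, was at 7.64, 7.14, 9.42 and 7.73 in PCDNA3 cells and at 7.14, 7.80, 7.52 and 7.43 in A375 cells. For these genes replicate 3 of PCDNA3 cells was above every other array, and the other 7 arrays overlapped.

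On that array 13 of the 32 genes were at least 1 log2 unit above the median of the other 3 PCDNA3 arrays, against 48 of all genes (0.261%). The excess was 2.25 for RIGI and 1.78 for IFIT1, which were above the olfactory receptor level on all 8 arrays. It was 5.39 for CXCL10, 2.30 for RSAD2, 2.29 for IFI44 and 1.77 for IFI44L. CXCL10 and RSAD2 were under the olfactory receptor level on all other arrays, IFI44 on most, and IFI44L on all 8 arrays. The sizes of these 4 differences are therefore uncertain. The whole list had a median excess of 0.574 there. MX1 (5.36, 5.56, 5.49 and 5.83 in PCDNA3 cells) and ISG15 (5.79, 6.01, 5.94 and 5.97), both classical targets of interferon, were not higher on replicate 3. None of 12 type I interferon genes was above the olfactory receptor level, and IFNB1 was at 2.58, 2.47, 2.56 and 2.53 in PCDNA3 cells. Without PCDNA3 replicate 3 the median SD of the list was 0.195, and 0 of its 32 genes had an SD over 0.5. IFI44, whose mean was 5.20, was above the olfactory receptor level only with that array, and averaged 4.89 without it.

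**Figure D3:**
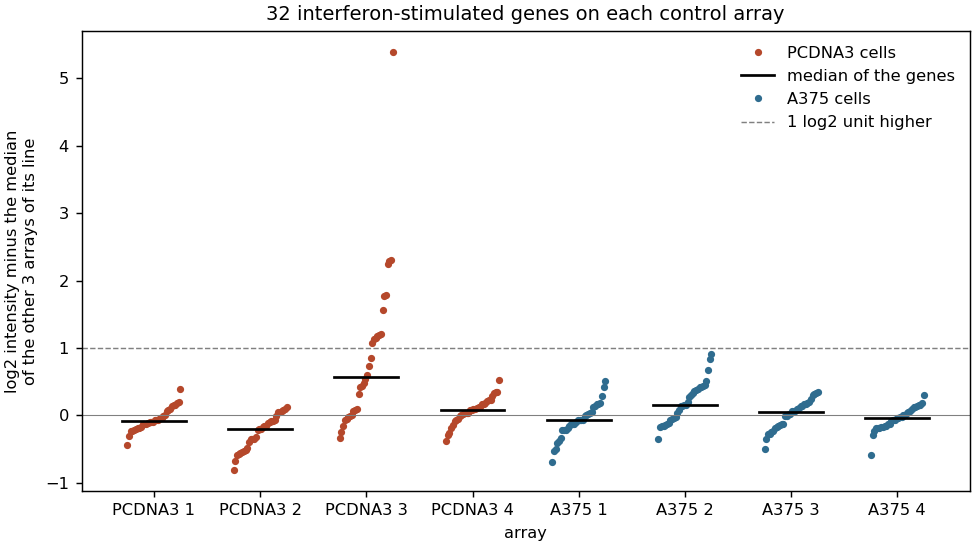
Log2 intensity of each of 32 interferon-stimulated genes minus the median of the other 3 arrays of its line (y axis), on each array (x axis, PCDNA3 cells in red, A375 cells in blue, genes in order of value), with a black bar at the median of the genes and a dashed line at 1 log2 unit. On PCDNA3 replicate 3 the median is 0.574 and 13 genes are above the dashed line, and on the other 7 arrays no gene is above it.

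Interferon response elements hold GAAA, repeated after 2 bases of any kind, searched here on both strands. It was in 17 of 25 interferon-stimulated genes with a RefSeq promoter (68.0%), from 250 bases before to 50 after the start, and in 3.04% of all 14219 promoters. Of the genes at least 1 log2 unit higher on PCDNA3 replicate 3, 6 of 10 had the motif, as had 11 of 15 others. The bases before the start are shown for 3 genes that were high on that array, with the motif in capitals on either strand. They lie at chr10:89392373-89392622 for IFIT1, chr10:89327747-89327996 for IFIT3 and chr1:78649539-78649788 for IFI44, all on the plus strand of GRCh38.p14. No match was found in the promoter of RIGI, which says only that these letters are not in this window.
IFIT1: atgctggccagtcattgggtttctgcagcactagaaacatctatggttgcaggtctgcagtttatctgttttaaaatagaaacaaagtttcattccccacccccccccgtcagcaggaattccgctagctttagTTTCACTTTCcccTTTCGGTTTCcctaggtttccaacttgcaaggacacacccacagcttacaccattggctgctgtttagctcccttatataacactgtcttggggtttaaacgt
IFIT3: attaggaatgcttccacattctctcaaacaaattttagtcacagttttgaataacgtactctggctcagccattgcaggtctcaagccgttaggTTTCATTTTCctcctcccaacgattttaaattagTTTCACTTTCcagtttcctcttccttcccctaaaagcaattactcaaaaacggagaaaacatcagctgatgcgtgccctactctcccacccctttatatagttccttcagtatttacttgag
IFI44: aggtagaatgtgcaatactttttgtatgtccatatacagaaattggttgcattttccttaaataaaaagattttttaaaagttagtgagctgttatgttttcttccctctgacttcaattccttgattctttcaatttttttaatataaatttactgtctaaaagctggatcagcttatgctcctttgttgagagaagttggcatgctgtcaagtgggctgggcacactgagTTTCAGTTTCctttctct

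Some chemokines were high on the same array. Of 37 chemokine ligands, 14 (37.8%) were above the olfactory receptor level, beside 72.1% of all genes, and 0 above that of the restricted families, and the brightest was CCL28 at 7.17. On PCDNA3 replicate 3, 6 of them were at least 1 log2 unit higher, beside 48 of all genes (0.261%), namely CXCL10, CXCL8 (2.11), CCL2 (1.51), CCL20 (1.22), CXCL11 (1.14) and CCL5 (1.10). CXCL10 and CCL5 were under the olfactory receptor level on the other 7 arrays, and CXCL11 was under it on every array. CXCL8, which draws neutrophils, was at 5.36, 6.0, 7.82 and 5.70 in PCDNA3 cells and at 6.78, 6.30, 5.74 and 6.13 in A375 cells. At least 1 log2 unit lower on that array were 20 of all genes (0.109%), beside 14, 16 and 11 on PCDNA3 replicates 1, 2 and 4. The 20 included SLC5A4 (-1.76), PMEL (-1.60), the lipid genes INSIG1 (-1.36) and SCD (-1.30), and TYRP1 (-1.26), each against the median of the other 3 arrays. PMEL was lower still on PCDNA3 replicate 2 (-2.065). The 19 cholesterol synthesis genes, all above the olfactory receptor level, had a median difference of -0.214 there, 0.304 on replicate 4, 0.071 on replicate 1 and -0.034 on replicate 2. CYP51A1 (10.42) and SQLE (10.18) led them, and both are enzymes of sterol synthesis.

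Outside these groups the 20 genes with the largest SD within lines, among genes above the olfactory receptor level, included signaling genes. In all, 51 of 13255 genes (0.385%) had an SD over 0.5, and 25 did so without PCDNA3 replicate 3. IL24, a cytokine first found in melanoma cells, was at 8.46, 8.35, 7.41 and 8.83 in PCDNA3 cells and at 8.88, 8.55, 6.70 and 6.75 in A375 cells. ID3, an inhibitor of transcription factors, was at 8.39, 7.53, 9.51 and 8.41 in PCDNA3 cells and at 6.87, 7.40, 8.13 and 8.40 in A375 cells. In A375 cells IL24 was low on replicates 3 and 4, where ID3 was high. CD96, a receptor of lymphocytes, was at 6.31, 8.30, 7.52 and 6.03 in PCDNA3 cells and at 7.51, 6.65, 7.03 and 7.27 in A375 cells.

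INHBA, a subunit of activin, was at 5.86, 6.88, 7.67 and 5.81 in PCDNA3 cells and at 6.66, 6.10, 5.64 and 5.92 in A375 cells. NOX4, an oxidase that makes hydrogen peroxide, was at 5.77, 5.36, 5.37 and 5.64 in PCDNA3 cells and at 5.86, 6.58, 4.67 and 5.11 in A375 cells. Both had ranges that overlapped between the lines. XAF1, whose mean was 5.41 with PCDNA3 replicate 3 and 5.14 without it, CCL2, WNT5A, DCSTAMP, PLA1A and LINC02915 were also among the 20 and were highest on PCDNA3 replicate 3, while SLC5A4 was lowest there. MUC12 had its lowest value on A375 replicate 3. The spread fell with the level. The median SD was 0.169 in the dimmest decile of genes and 0.109 in the brightest.

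Stress response lists had larger shares above both levels than all genes, which had 72.1% and 42.2%. Above the level of the restricted families were 14 of 21 ATF4 and unfolded protein response genes (66.7%) and 17 of 22 heat shock proteins (77.3%). So were 16 of 22 hypoxia targets (72.7%) and 14 of 23 immediate early genes (60.9%). All 21 genes of the ATF4 and unfolded protein response were above the olfactory receptor level, from HSPA5 (12.27), the chaperone of the endoplasmic reticulum, to ATF3 (5.50). PHGDH (10.82), which makes serine, SLC7A11 (10.44), which imports cystine, and ATF4 (10.39) were in the top decile. Of 22 heat shock proteins 19 were above, led by HSPA8 and HSP90B1, and HSPB3 (3.66), HSPB7 (4.54) and HSPA1L (5.16) were not. Of 22 hypoxia targets 20 were above, led by NDRG1 (10.62) and PFKFB3 (10.14), and LOX (3.62) and STC2 (4.40) were not. All 23 immediate early genes were above, with IER3 at 10.00 and NR4A3 at 5.88.

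Markers of other cell types served as a contrast. Of 14 epithelial and keratinocyte markers 7 were above the olfactory receptor level and 1 above that of the restricted families. That gene was KRT18 at 10.46, while CDH1 (4.29), EPCAM (3.62) and DSG3 (3.48), adhesion genes that define epithelium, were below both. Of 17 leukocyte markers 7 were above the olfactory receptor level, and CD68 (9.98), a lysosomal protein that other cells also make, alone was above that of the restricted families. PTPRC, which all leukocytes carry, averaged 3.04. Of 10 endothelial markers 3 were above, and 1, the receptor KDR (7.54), was above that of the restricted families, while PECAM1 (3.98) and ERG (3.93) were not above either.

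Of 12 fibroblast and mesenchyme markers 11 were above the olfactory receptor level and 5 (41.7%) above that of the restricted families, beside 42.2% of all genes, with VIM, S100A4 (10.32) and COL1A2 leading. COL1A2, a chain of collagen I, was at 9.79, 10.69, 9.40 and 10.25 in PCDNA3 cells and at 10.23, 10.18, 9.26 and 9.24 in A375 cells, and it varied within both lines. DCN, a proteoglycan of fibroblasts, averaged 3.27. Of 15 neuron markers 9 were above the olfactory receptor level and 2 above that of the restricted families, and TAC1, the precursor of substance P, was at 9.68, 10.14, 10.26 and 9.78 in PCDNA3 cells and at 9.77, 9.06, 10.08 and 9.88 in A375 cells, all far above the restricted families and with overlap of the lines. GAD2, which makes GABA, averaged 3.72. Of 10 glia markers, which include S100B and SOX10, 9 were above the olfactory receptor level and 3 above that of the restricted families, with CNP at 10.72 and AQP4 at 3.17. Of 15 hepatocyte markers 6, of 16 muscle markers 5, of 12 germ cell markers 3, of 9 pancreas markers 2 and of 8 erythrocyte markers 1 (HBE1, 6.05) were above the olfactory receptor level. Of these 5 lists ACTA1 (7.36), the muscle actin, was the only member above the level of the restricted families, and ALB averaged 2.62. What part other cells or shared use of these genes has in these values was not tested.

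**Figure D4:**
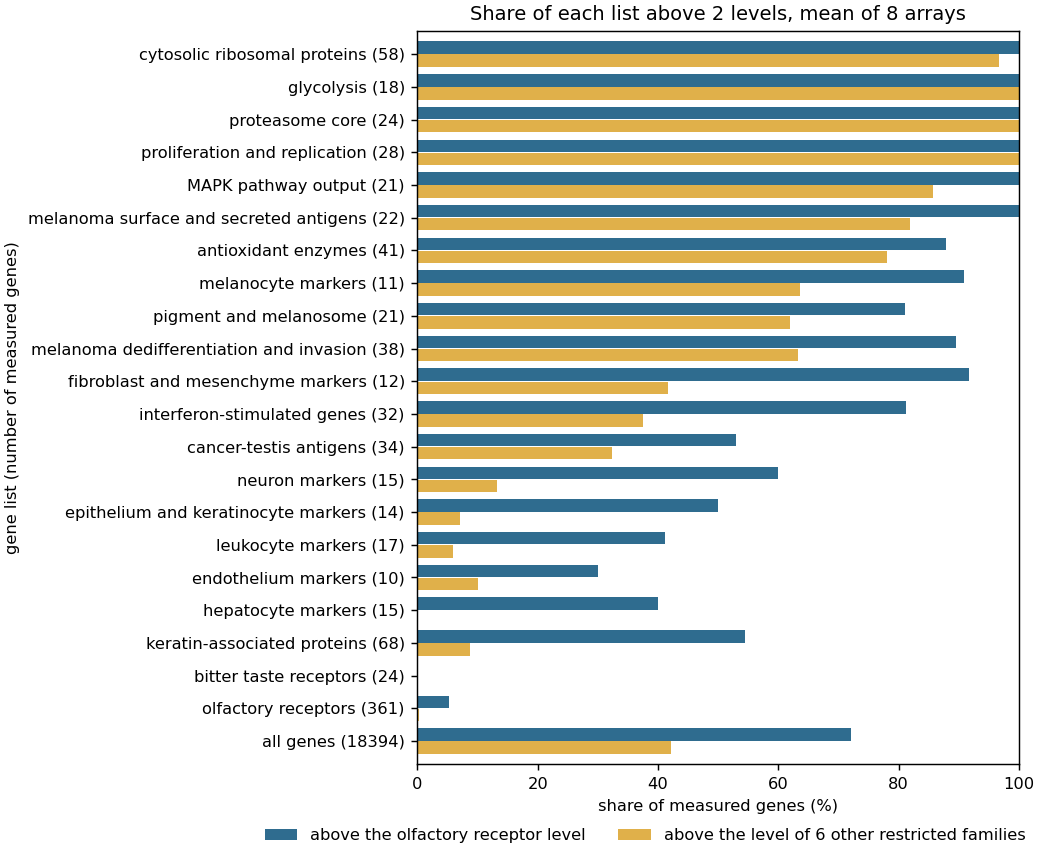
Share of the measured genes of each list (x axis, %) that was above the olfactory receptor level (blue) and above the level of the 6 other restricted families (yellow), in the mean of the 8 control arrays, with the number of genes beside each list (y axis). Lists of core machinery reach at least 96.6% on both bars, the epithelium, leukocyte, endothelium and hepatocyte lists have yellow bars of 10.0% or less, the fibroblast list has 41.7%, and all genes are at 72.1% and 42.2%.

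Chemosensory receptors and beta-defensins, which serve few tissues, were dim with few exceptions. Of the 361 olfactory receptors, 19 were above the olfactory receptor level, a count that the percentile fixes, and 1 was above the level of the restricted families. That gene, OR8G1, was at 7.72, 7.51, 7.15 and 7.17 in PCDNA3 cells and at 7.29, 7.63, 6.90 and 7.45 in A375 cells. OR2H2 (6.02), OR8G5 (5.83), OR10S1 (5.83) and OR8A1 (5.77) came next, and OR1J2, OR6C68, OR5K1, OR6C70 and OR5T1 were the dimmest, at 1.96 to 2.22. No bitter taste receptor (24 genes) or vomeronasal receptor (6 genes) was above the level, and 2 of 24 beta-defensins were.

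Keratin-associated proteins, which build hair, and late cornified envelope proteins of the skin were not dim by the same measure. Of 68 keratin-associated protein genes 37 (54.4%) were above the olfactory receptor level, with KRTAP5-3 at 8.74, and so were 13 of 17 late cornified envelope genes, with LCE1D at 7.76. These genes are short and alike in sequence, and whether their values come from their own RNA was not tested. Keratins (19 of 48), potassium channels (36 of 73), claudins (11 of 23), cytochromes P450 (21 of 53) and interleukins (17 of 44) were above the olfactory receptor level, beside 72.1% of all genes. In each of these families 1 to 4 members were above the level of the restricted families. The brightest of each family were KRT18, the calcium-activated potassium channel KCNN4 (8.30), CLDN12 (10.13), CYP51A1 and the receptor IL6R (8.90).

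Genes of the cell surface and matrix were mixed. Most of these families were near the 72.1% of all genes above the olfactory receptor level. Above the level of the restricted families were 48.3% of genes with integrin symbols and 45.2% of protocadherins, beside 42.2% of all genes. Solute carriers had 38.3% there, and collagens and matrix metalloproteinases 27.3% each. Of 29 genes with integrin symbols 19 (65.5%) were above the olfactory receptor level, and ITGB3, ITGA6 (10.65), ITGAV (10.38) and ITGB1 (10.29), which bind matrix, led. Of 22 matrix metalloproteinases 10 (45.5%) were above, with MMP16 (10.05) and MMP14 (8.20), both tethered to the membrane, the brightest and MMP26 (2.96) the dimmest. Of 33 collagens 25 (75.8%) were above, and COL4A1 (9.29) and COL4A2 (9.26) of the basement membrane followed COL1A2. Of 42 protocadherins 33 (78.6%) were above, with PCDHA10 at 9.65. Of 376 solute carriers 256 (68.1%) were above, led by SLC25A5 (12.29), the exchanger of ADP and ATP in mitochondria.

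Among nuclear genes 22 of 27 HOX genes, which record position along the body axis, were above the olfactory receptor level (81.5%), with HOXB2 at 9.12 and HOXD13 at 9.06, and 369 of 480 genes with ZNF symbols were above it (76.9%), beside 72.1% of all genes. Above the level of the restricted families were 22.2% of the HOX and 25.6% of the ZNF genes, beside 42.2% of all genes. Histones gave 59 of 73, led by H1-4 at 12.05, a linker histone that packs chromatin. Of 192 small nucleolar RNAs 115 were above, from SNORD33 at 11.14 to SNORD115-3 at 1.86, the dimmest gene of all. SNORD33 lies within an intron of a ribosomal protein gene.

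MicroRNA genes were dim. Of 186, 52 were above the olfactory receptor level and 7 above that of the restricted families. The brightest were MIR326 (8.47), MIR339 (8.05), MIR194-2 (7.70) and MIR210 (7.44), the last a target of hypoxia. MIR21, a microRNA of many tumors that is named as an example, was at 5.32, 6.54, 5.92 and 5.69 in PCDNA3 cells and at 6.07, 6.83, 5.25 and 6.06 in A375 cells. The array reads precursors or their host transcripts, so these values are not levels of the mature forms. The mature RefSeq sequences are given to identify these genes, with the seed, bases 2 to 8, in capitals. No seed was shared among them.
hsa-miR-326: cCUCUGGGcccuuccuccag
hsa-miR-339-5p: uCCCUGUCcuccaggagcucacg
hsa-miR-339-3p: uGAGCGCCucgacgacagagccg
hsa-miR-194-5p: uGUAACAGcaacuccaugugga
hsa-miR-210-3p: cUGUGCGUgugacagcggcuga
hsa-miR-21-5p: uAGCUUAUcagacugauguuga

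Promoter sequence, which played no part in the choice of arrays or lists, differed with the level. A RefSeq promoter of 300 bases was found for 14219 genes. Sorted by level into deciles, the median number of CG dinucleotides was 4 in the dimmest decile, 7, 12 and 20 in the next 3, and 26 to 28 in deciles 5 to 10. The 275 olfactory receptor promoters had a median of 1. TATAAA, searched on the strand of the gene, was in 16.7% of the dimmest decile, in 2.74% of decile 8, in 4.43% of the brightest decile and in 6.37% of all promoters. It was in 17.5% of olfactory receptor promoters and in 39 of 55 promoters of keratin-associated proteins (70.9%).

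With the olfactory receptors left out, the 3394 promoters of genes not above the level had a median of 7 CG, and 11.9% had TATAAA, against 26 and 4.3% for the 10563 promoters of genes above it. The 49 promoters of ribosomal proteins had a median of 23 CG, and those of interferon-stimulated genes had 8. Of 18 promoters of pigment and melanosome genes, 9 (50.0%) held CATGTG on either strand, against 8.25% of all promoters. These genes were chosen as known targets and partners of MITF, so the share is a description. A match is a run of letters and was not tested as a binding site.

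**Figure D5:**
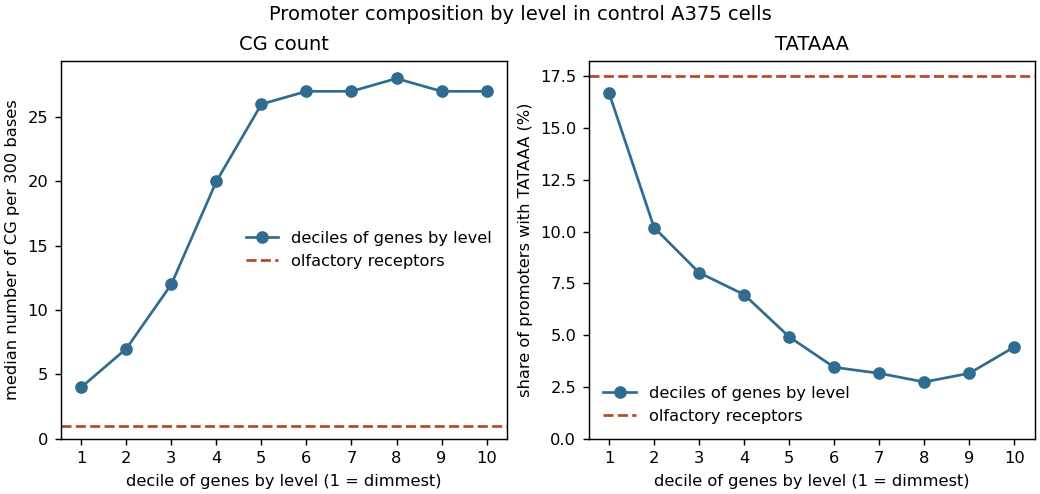
Median number of CG dinucleotides per RefSeq promoter of 300 bases (left panel, y axis) and share of promoters with TATAAA (right panel, y axis, %) in deciles of 14219 genes by mean level (x axis, 1 is the dimmest), with dashed lines for the 275 olfactory receptor promoters. The CG count goes from 4 in decile 1 to 26 in decile 5 and stays at 27 or 28 from there, and the share with TATAAA is highest, 16.7%, in decile 1.

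By kind of gene, 74.3% of protein-coding genes, 58.9% of small nucleolar RNA genes, 44.2% of long noncoding RNA genes and 25.4% of microRNA genes were above the olfactory receptor level, after the RefSeq table's classes. By chromosome the share was highest on chromosomes 16 (83.5%) and 22 (81.3%) and lowest on chromosomes 4 (61.2%), 21 and X (62.7% each). Chromosome 11, which holds 167 of the olfactory receptor genes, had 66.5%, and 76.1% without them.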

How the data were processed

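RNA of the 8 control samples was hybridized to Human Gene 1.0 ST arrays of Affymetrix. The deposited log2 intensities were made by the authors with RMA, which subtracts background, equalizes arrays and sums up probes, and were used as given. No source used here gives its version. Of 33297 transcript clusters, 19460 carried 1 gene symbol, 1754 several and 12083 none, by the array's annotation. Only clusters with 1 symbol gave a gene its value. Of 18417 genes, 769 had several clusters, and the one with the highest mean over the 8 arrays was used. Genes linked to the Y chromosome and XIST, 23 in all, were left out, which left 18394.

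For each gene the mean over the 8 arrays, its rank, and the SD pooled within the 2 lines (6 degrees of freedom) were computed in Python 3.11.15 with pandas 2.3.3 and numpy 2.4.6. The scripts were tested on simulated data. A gene was called above the olfactory receptor level when its mean exceeded the 95th percentile of the olfactory receptor clusters. The lines were set side by side only by whether their ranges overlapped. No test was made, so no p-values are given. The number of arrays limits the precision, and fold changes between lines are not given. Promoters are RefSeq's, on build GRCh38.p14, from 250 bases before to 50 after the start, with overlapping matches counted.

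Members and lists were chosen with earlier results of these data known. Named were the 25 brightest genes, all melanocyte markers and qPCR genes, the up to 4 brightest and 3 dimmest members of other lists and up to 5 exceptions, the 20 most variable genes above the level, the 3 genes on each side of it and the 5 brightest and dimmest olfactory receptors. WNT5A as a partner of PMEL, CXCL8, CCL2, CCL20, CCL5, INSIG1, SCD, SLC5A4, IFIT1, MX1, ISG15, IFNB1, MIR21, KIT as a full series and a few others were chosen after their values were seen. Alternatives were other percentiles and yardsticks, each line alone, a further quantile normalization, median centering, the mean over the clusters of a gene, clusters with several symbols, the median absolute deviation, a promoter window of 250 bases and leaving out each array. Probe-level data and protein sequences were not analysed here.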

Additional observations from a re-analysis of the deposited data

Results flagged for a closer look

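In each line the 4 arrays of every named gene were checked for 1 array far from the other 3, by Dixon's ratio of the gap to the range. Of 462 sets of 4 arrays, 38 (8.23%) had such an array. Chance gives about 1 in 20 over sets not chosen for their values, but some genes were named because they varied or were high on 1 array, so the share cannot be read against that. PCDNA3 replicate 3 had 9 of them, PCDNA3 replicate 2 had 7, and each other array 3 to 5.

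On PCDNA3 replicate 3 all 9 were high. CXCL10 was at 7.99 with the next array at 2.80, IFI44 at 7.34 with the next at 5.27, RSAD2 at 6.18 (next 3.95) and IFI44L at 5.08 (next 3.48), all interferon-stimulated genes. CCL2 was at 7.57 (next 6.06), CCL5 at 5.56 (next 4.50), PLA1A, a phospholipase, at 9.58 (next 8.0) and CDK1, the kinase of mitosis, at 9.52 (next 8.75). GPX5, at 3.97, and IFI44L were under the olfactory receptor level there.

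On the other PCDNA3 arrays the flagged values were mostly small steps. Replicate 1 was apart for RAC1 (12.45), RPL4 (13.32) and OR5K1 (1.76). Replicate 2 was apart for SLC7A11 (10.93, next 10.49) and PHGDH (11, next 10.66), a cystine importer and an enzyme of serine synthesis that both respond to ATF4, and for UCHL1 (7.56), OR8G5 (6.30), NTRK2 (4.41), MIR194-2 (7.91) and SLC25A5 (12.11). Replicate 4 was apart for CAT (8.71), MIR339 (7.86), HLA-DOB (3.76), HSPB7 (4.73) and PTPRC (3.35).

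In A375 cells replicate 2 was apart for CAT (9.03, next 8.65), ANXA1 (12.02) and WNT5A (7.37), and replicate 1 for PLA1A (9.16), MAGEB2 (8.19) and SPRED1 (10.24). Replicate 3 was apart for FAF2 (13.41), MX1 (5.49), GPX2 (4.01) and GPX6 (3.71), and replicate 4 for CNTN1 (4.39), DKK1 (3.91), DSG3 (3.12) and POSTN (3.46).

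Outside the genes described, 4723 of 12083 clusters with no gene symbol (39.1%) were above the olfactory receptor level in the mean of the 8 arrays, as were 1271 of 1754 clusters with several symbols (72.5%). What they read was not analysed here.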

How the results depend on the processing

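No paired analysis was possible because the results come from no test. Deviations of PCDNA3 and A375 arrays with the same number correlated at -0.203 to 0.03. With the level of the 6 other restricted families as yardstick, 7771 genes in place of 13255 and 12 interferon-stimulated genes in place of 26 were above. The 90th and 99th percentiles of the olfactory receptors gave 13951 and 11648 genes, and clusters with several symbols, added, gave 14526. The median SD of interferon-stimulated genes, 0.311, was 0.138 as a median absolute deviation and 0.195 to 0.34 when 1 array was left out, the lowest without PCDNA3 replicate 3. Leaving out 1 array gave 13216 to 13310 genes above the level, 25 to 26 interferon-stimulated genes, 10 melanocyte markers each time, and a median SD of 0.126 to 0.14 for genes above the level. The median CG count was 21 in the brightest decile and 3 in the dimmest with 250 bases, against 27 and 4 with 300. Of 76 alternative values for these results, 72 stayed within 1.5 times the first value. Of the values for lists and single genes, 4330 did so or stayed within 1 SD within lines and 157 moved further. With the 6 other restricted families as yardstick, 37 values moved further and 21 did not. With the 99th percentile of the olfactory receptors 11 moved further and 47 did not. With PCDNA3 arrays alone 39 moved further and 309 did not, and with A375 arrays alone 40 and 308. EGFR, EPHA4, HSPA1L, COX7A1, IFI44, XAF1 and the 6 genes nearest the level changed sides when 1 array was left out. The arrays are 4 per line, and probe effects and shared sequences limit the comparison of levels between genes.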
